A study of Mus musculus with 8 samples.

Results

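The chemokine ligands described here are 7 genes known to be transcribed by CD8 T cells: Ccl1, Ccl3, Ccl4, Ccl5, Ccl9, Xcl1 and Cxcl10. They were chosen by name, and each had 1 row among the 23284 distinct gene symbols of the deposited tables. The libraries were made from BALB/c mouse CD8+ T cells that bound the AH1 tetramer, a reagent that stains T cells specific for an endogenous retroviral peptide displayed by BALB/c tumours. Cells had been sorted by flow cytometry into a stem-like and a term diff (terminally differentiated, by the field's usage) subset, from wild-type mice and from Cd69-/- mice. Each of the 4 groups (wild-type stem-like, wild-type term diff, Cd69-/- stem-like and Cd69-/- term diff) held 2 libraries, 8 in all. Which tumour was used, how old the animals were, their sex and number, the sort gates and whether T cells alone carried the deletion are not in the labels. The labels also do not say that replicates came from separate mice, so p-values measure the spread between these libraries, which may be technical.

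Chemokines are small secreted proteins that draw leukocytes along a gradient by engaging receptors coupled to G proteins, and they are classed by the spacing of their first conserved cysteines (CC, CXC, and the XC family, which lacks one of the paired cysteines). Activated CD8 T cells release Ccl3, Ccl4 and Ccl5, which draw monocytes, dendritic cells and other T cells, Ccl3 and Ccl5 in part through CCR1. Xcl1 acts on XCR1, the receptor of cross-presenting dendritic cells. Ccl1 is the ligand of CCR8, Ccl9 acts on CCR1, and Cxcl10, induced by interferon, acts on CXCR3 of activated T cells.

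Ccl1, Ccl3, Ccl4, Ccl5 and Ccl9 lie on mouse chromosome 11, where most CC chemokine genes are clustered. In mm10, as the deposited tables place them, Ccl5 spans 83525779 to 83530518, Ccl9 83572917 to 83578636, Ccl3 83647843 to 83649378 and Ccl4 83662584 to 83664683, all within 139 kb. Ccl3 and Ccl4 are 13.2 kb apart and on opposite strands, Ccl4 on the plus strand and the other 4 on the minus strand. Ccl1 spans 82176666 to 82179812 on the same chromosome, 1346 kb from Ccl5. Xcl1 is on the minus strand of chromosome 1 (164931648 to 164935510) and Cxcl10 on the minus strand of chromosome 5 (92346639 to 92348889). All 7 are protein-coding genes, and the first annotated transcript of each in GENCODE M21 has 3 exons, or 4 in Ccl9 and Cxcl10. Xcl1 lies opposite the non-coding gene Gm20743, which had no row in the tables, and Cxcl10 opposite Art3, whose highest level in any library was 0.26 FPKM. Whether the authors' counting used strand is not stated, so it is unknown whether reads from these opposite genes were kept apart.

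Promoter sequence from RefSeq (build GRCm38.p6, which has the mm10 coordinates) was held for 5 of the 7 genes, and Ccl4 and Ccl5 had no entry. The 250 bases before the transcription start are shown for a ligand that was higher in term diff (Ccl3), for both that were lower there (Xcl1 and Ccl1), and for Cxcl10, an interferon target that passed the test in wild type. In Ccl3 (chr11:83649379-83649628, minus strand) and Xcl1 (chr1:164935523-164935772, minus strand) capitals mark GGAAA, the core that NFAT proteins bind, on either strand. In Ccl1 (chr11:82179813-82180062, minus strand) they mark GGG, any 5 bases and CC, a loose form of the kappaB site of NF-kappaB. In Cxcl10 (chr5:92348890-92349139, minus strand) they mark this loose kappaB pattern and GAAA, any 2 bases and GAAA, the core of the interferon-stimulated response element.
Ccl3: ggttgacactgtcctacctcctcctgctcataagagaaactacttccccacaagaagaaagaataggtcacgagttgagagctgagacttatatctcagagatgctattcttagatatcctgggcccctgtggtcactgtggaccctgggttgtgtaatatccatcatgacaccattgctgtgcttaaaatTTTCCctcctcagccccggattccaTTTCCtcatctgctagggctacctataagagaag
Xcl1: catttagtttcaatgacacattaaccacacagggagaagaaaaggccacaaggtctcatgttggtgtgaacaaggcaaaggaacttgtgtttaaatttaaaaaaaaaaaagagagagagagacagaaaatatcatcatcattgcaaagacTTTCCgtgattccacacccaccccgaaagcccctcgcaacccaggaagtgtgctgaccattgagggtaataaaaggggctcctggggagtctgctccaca
Ccl1: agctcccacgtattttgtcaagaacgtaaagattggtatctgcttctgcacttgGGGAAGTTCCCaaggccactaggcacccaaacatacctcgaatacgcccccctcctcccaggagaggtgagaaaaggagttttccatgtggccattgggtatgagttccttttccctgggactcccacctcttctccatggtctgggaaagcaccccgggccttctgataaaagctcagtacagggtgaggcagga
Cxcl10: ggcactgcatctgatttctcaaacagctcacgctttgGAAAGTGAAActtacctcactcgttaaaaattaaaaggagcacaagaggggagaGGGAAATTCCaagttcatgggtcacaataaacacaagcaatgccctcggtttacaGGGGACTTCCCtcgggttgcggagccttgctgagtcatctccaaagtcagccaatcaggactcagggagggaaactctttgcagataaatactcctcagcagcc
Both strands were searched for these 3 motifs and for TGANTCA, the AP-1 site, and overlapping matches were counted apart. The interferon-stimulated response element core was found once in Cxcl10, starting 213 bases before the start, and in none of the other 4 promoters held (2.98% of 32841 promoter windows of the same length hold it). The loose kappaB pattern was found 3 times in Cxcl10, 2 times in Ccl1 (overlapping) and once in Ccl9, against 45.8% of all windows with at least 1. GGAAA occurred in all 5 promoters and in 55.6% of windows, with matches 59 and 34 bases before the start in Ccl3 and 100 bases before it in Xcl1. TGANTCA was found in Cxcl10 and in Ccl9, and in 6.75% of windows. These matches describe the letters in each window and were not tested as binding sites.

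Levels are in FPKM, a fragment count divided by the transcript's length and the library's size, so an order between genes rests on this length correction. The confidence limits deposited with each FPKM implied 2055402 to 2591061 fragments per library. In wild-type stem-like replicate 1, Ccl3 had 68 implied fragments and Ccl4 58, yet Ccl4 had the higher FPKM (15.2 against 13.8). Small RNA genes held 56.0% and 63.6% of summed FPKM in replicate 2 of wild-type term diff and of wild-type stem-like, against 77.9% to 84.4% in the other 6 libraries. Cd69 was at 22.5 to 23.4 FPKM in wild-type stem-like, 10.4 to 12.9 in wild-type term diff and 2.21 to 3.69 in the 4 Cd69-/- libraries. Tcf7, a transcription factor of stem-like T cells, was at 40.6 to 64.2 FPKM in stem-like and at most 0.755 in term diff libraries. All 10 CD8 T cell markers were expressed, with summed levels of 1094 to 1625 FPKM. Of 16 myeloid markers 11 stayed under 1 FPKM in all libraries, and their summed level was 8.43 to 14.7 in stem-like and 4.18 to 7.44 in term diff.

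In stem-like cells Xcl1 was the most abundant of the 7 transcripts, and in term diff cells Ccl5 was. In wild-type stem-like libraries Xcl1 made up 73.1% and 73.8% of the 7 genes' summed FPKM and Ccl5 4.22% and 4.53%. In wild-type term diff Ccl5 made up 45.8% and 63.4% and Xcl1 5.73% and 10.8%. The Cd69-/- subsets had the same leading gene, with Xcl1 at 38.1% and 53.9% in stem-like and Ccl5 at 49.9% and 60.5% in term diff. These shares do not depend on how a library was scaled. The summed FPKM of the 7 genes was 141 to 174 in the 4 stem-like libraries and 283 to 411 in the 4 term diff libraries, without overlap.

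**Figure D1:**
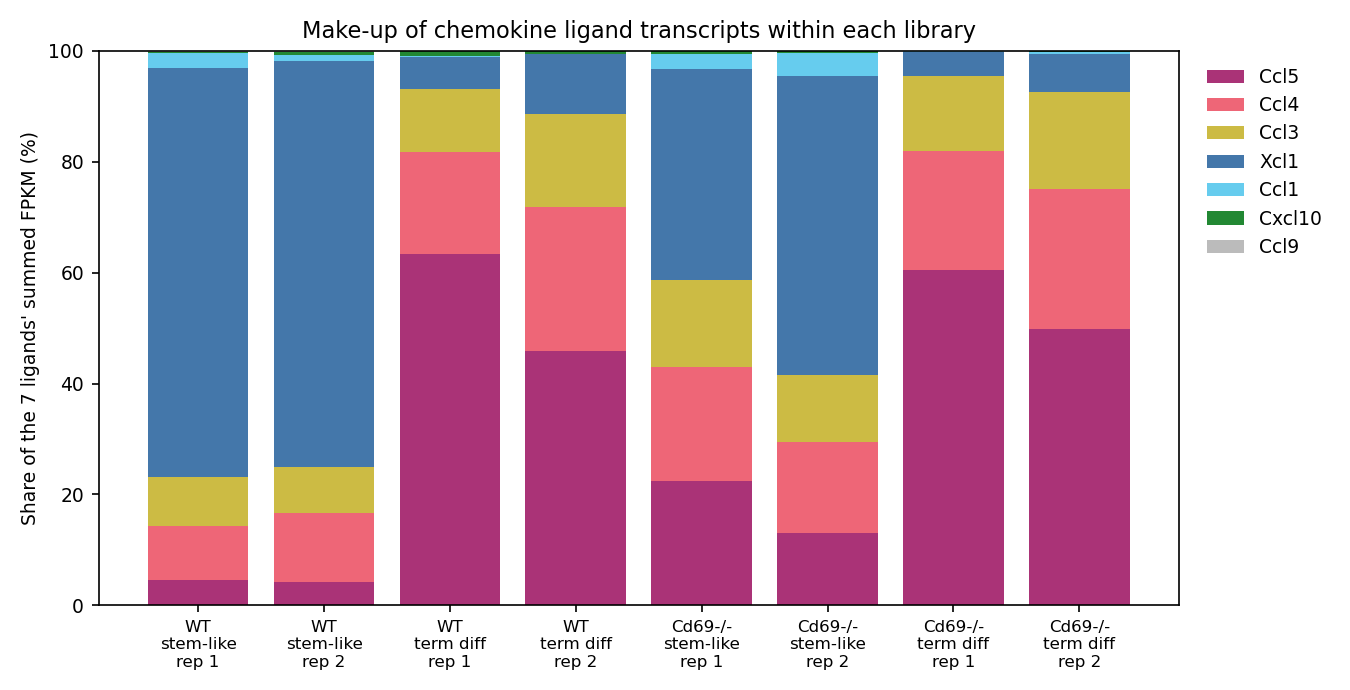
Share of each ligand (y axis, percent) in the summed FPKM of the 7 genes, 1 stacked bar per library (x axis). Xcl1 holds 38.1% to 73.8% of each stem-like bar, and Ccl5 45.8% to 63.4% of each term diff bar.

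By mean level the order in wild-type stem-like was Xcl1, Ccl4, Ccl3, Ccl5, Ccl1, Cxcl10 and Ccl9, and no neighbours in that order overlapped between libraries. In wild-type term diff it was Ccl5, Ccl4, Ccl3, Xcl1, Cxcl10, Ccl9 and Ccl1, and of these neighbours only Ccl9 and Ccl1 overlapped. In Cd69-/- stem-like Xcl1 again led, followed by Ccl4, Ccl5 and Ccl3, whose libraries overlapped from each to the next. In Cd69-/- term diff the first 4 places were the same as in wild-type term diff. Among the 9782 genes that reached 1 FPKM in at least 2 libraries, Ccl5 ranked between 154 and 204 from the top in the term diff libraries. It ranked 3366 and 4002 in the wild-type stem-like and 603 and 1370 in the Cd69-/- stem-like libraries.

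Between the wild-type subsets, Ccl5, Ccl4 and Ccl3 rose in term diff cells and Xcl1 and Ccl1 fell, while Cxcl10 rose from a level near the limit of detection. Fold changes were tested on the log2(FPKM + 1) scale with limma, with Benjamini-Hochberg adjustment over the 9782 genes kept, and are given ± standard error; calls were made at an adjusted p under 0.05. Of the 7 ligands 6 passed in wild type, 4 higher and 2 lower, against 13.1% of all genes tested (7.24% higher and 5.83% lower). Ccl9 was not tested because it was under 1 FPKM in all libraries. Ccl1 entered the test only through its stem-like libraries and Cxcl10 only through wild-type term diff, so those 2 had to differ. The same 6 had libraries that did not overlap between the wild-type subsets, as did 55.2% of all genes tested (33.4% higher and 21.8% lower).

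Ccl5 (RANTES), a T cell and monocyte attractant that effector T cells store and release on activation, was at 7.08 and 6.12 FPKM in wild-type stem-like and 222 and 130 in wild-type term diff. In Cd69-/- cells it was at 39.1 and 18.4 FPKM in stem-like and 248.5 and 177 in term diff. Term diff libraries were all above stem-like libraries of both genotypes, and the Cd69-/- stem-like pair lay between the wild-type stem-like and the term diff libraries. The ratio of means between subsets was 26.6 in wild type and 7.41 in Cd69-/-. Ccl5 rose by 4.49 ± 0.36 on the log2 scale in wild type (adjusted p = 0.000259, limma) and by 2.92 ± 0.36 in Cd69-/- (adjusted p = 0.00234, limma). The wild-type call held in all 22 alternatives. That in Cd69-/- ended without the filter on low genes (adjusted p = 0.0583; 7.5e-06 to 0.0583 over its alternatives).

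Ccl4 (MIP-1 beta), an attractant of monocytes and T cells, was at 15.2 and 18.1 FPKM in wild-type stem-like and 64.6 and 73.8 in wild-type term diff. Its levels in Cd69-/- cells were 35.7 and 23.0 FPKM in stem-like and 88.1 and 89.7 in term diff. The subsets did not overlap in either genotype, with means 4.15 times higher in wild-type and 3.03 times higher in Cd69-/- term diff. The rise was 1.99 ± 0.20 in wild type (adjusted p = 0.000747, limma) and 1.60 ± 0.20 in Cd69-/- (adjusted p = 0.00244, limma).

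Ccl3 (MIP-1 alpha), which acts on CCR1, was at 13.8 and 12.1 FPKM in wild-type stem-like and 39.7 and 47.4 in wild-type term diff. In Cd69-/- cells it was at 27.2 and 17.1 FPKM in stem-like and 54.9 and 62.4 in term diff. It therefore had the direction of Ccl4, its neighbour on chromosome 11, with ratios of means of 3.36 in wild type and 2.65 in Cd69-/-. The rise was 1.67 ± 0.21 in wild type (adjusted p = 0.00199, limma) and 1.40 ± 0.21 in Cd69-/- (adjusted p = 0.00562, limma). Without the 2 wild-type libraries low in small RNA, the wild-type value was 1.46 ± 0.31 (adjusted p = 0.0673; 9.0e-05 to 0.269 over its alternatives). Without the filter on low genes the Cd69-/- call also ended (adjusted p = 0.0696; 6.5e-05 to 0.997).

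Within each library Ccl4 stood at 1.10 to 1.63 times the FPKM of Ccl3 (median 1.47). The lowest ratio was in wild-type stem-like replicate 1 and the highest in wild-type term diff replicate 1. Ccl5 did not keep such a ratio: it stood at 0.337 and 0.465 times Ccl4 in wild-type stem-like, 0.799 and 1.10 in Cd69-/- stem-like, and 1.76 to 3.43 in the term diff libraries.

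**Figure D2:**
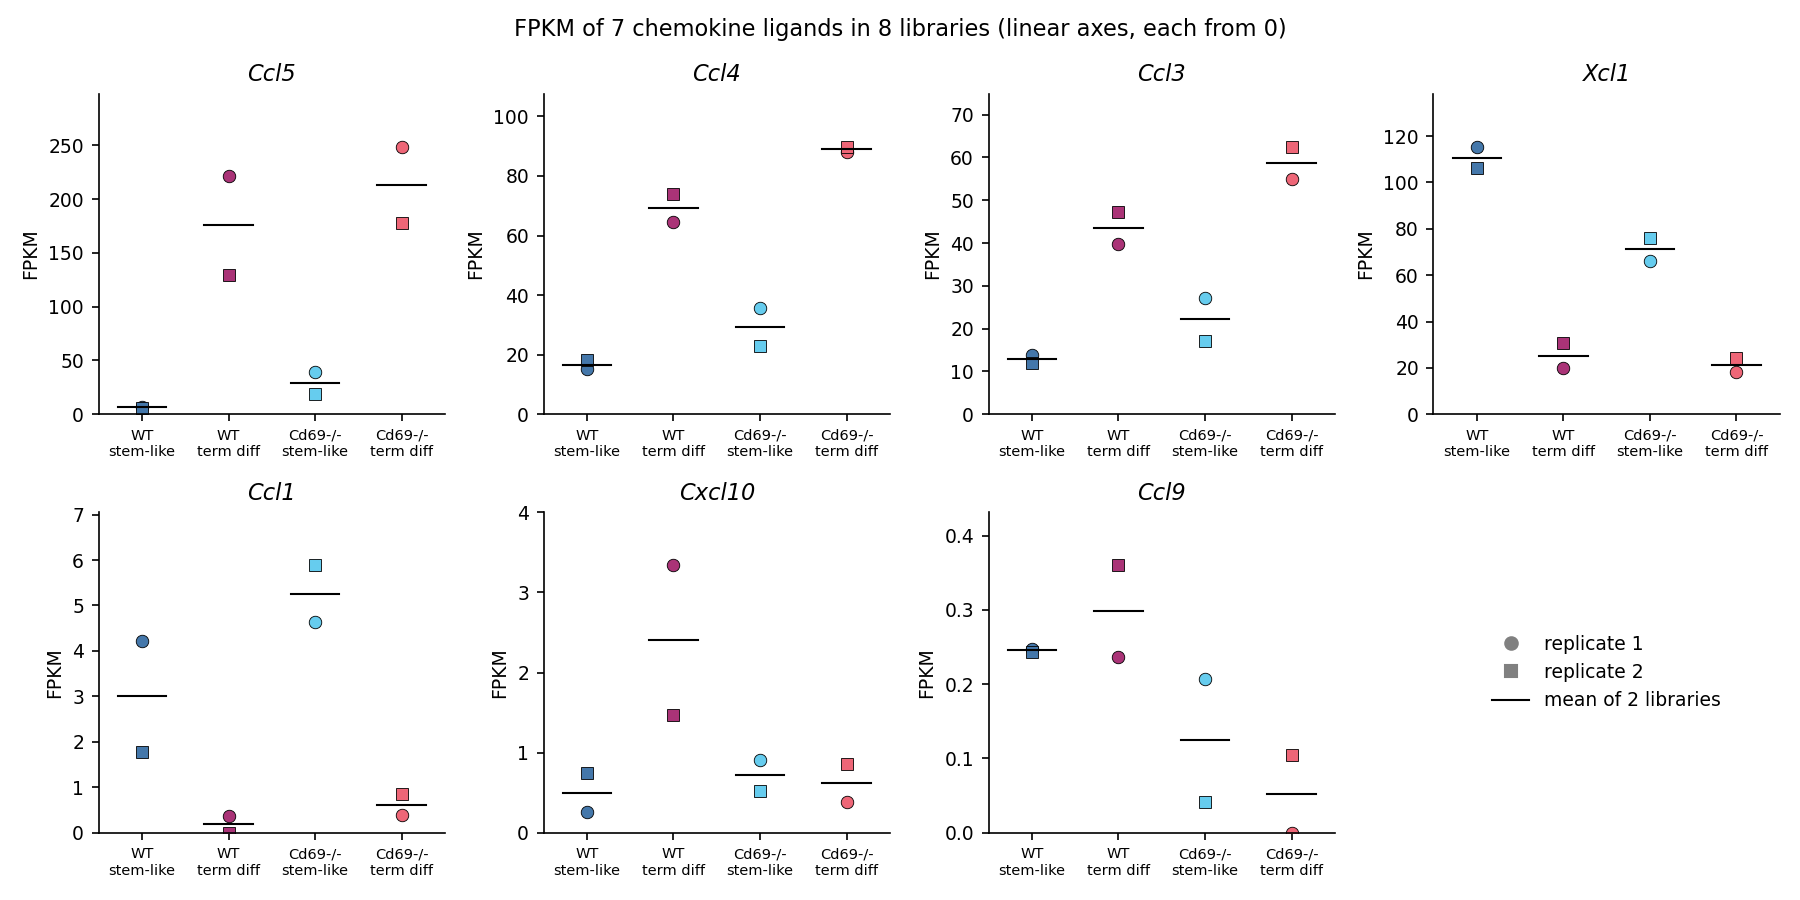
FPKM (y axis, linear, from 0 in each panel) of each ligand by group (x axis), circles for replicate 1, squares for replicate 2 and a line at the mean of 2 libraries. Ccl5, Ccl4 and Ccl3 are higher in the term diff libraries of both genotypes and Xcl1 and Ccl1 are lower, while Cxcl10 stands out in wild-type term diff and Ccl9 does not exceed 0.36 FPKM.

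Xcl1 (lymphotactin), the attractant of XCR1-bearing dendritic cells, was at 115 and 106 FPKM in wild-type stem-like and 20.1 and 30.6 in wild-type term diff. In Cd69-/- cells its levels were 66.3 and 76.0 FPKM in stem-like and 18.3 and 24.4 in term diff. The stem-like libraries were all above the term diff libraries, and the wild-type stem-like pair was above the Cd69-/- stem-like pair. Means were 4.37 times lower in wild-type and 3.34 times lower in Cd69-/- term diff. Xcl1 fell by 2.11 ± 0.21 in wild type (adjusted p = 0.000749, limma) and fell by 1.70 ± 0.21 in Cd69-/- (adjusted p = 0.00244, limma). The ratio of Ccl5 to Xcl1 within a library went from 0.0577 and 0.0614 in wild-type stem-like to 4.25 and 11.1 in wild-type term diff. In Cd69-/- it went from 0.242 and 0.59 to 7.27 and 13.6.

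**Figure D3:**
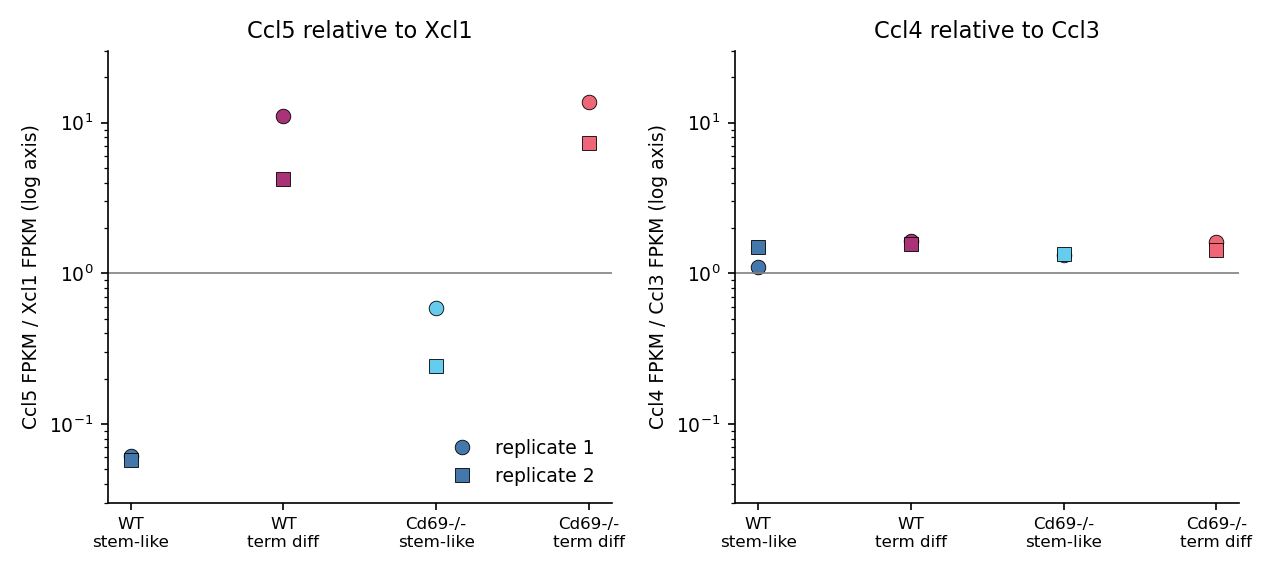
FPKM of Ccl5 over Xcl1 (left) and of Ccl4 over Ccl3 (right) in each library by group, on log axes with a line at equal levels. The left ratio lies under 1 in the 4 stem-like libraries and above 4 in the 4 term diff libraries, while the right ratio stays between 1.10 and 1.63.

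Ccl1 (TCA-3), the CCR8 ligand, was low in all libraries, with 4.23 and 1.77 FPKM in wild-type stem-like and 0.368 and 0 in wild-type term diff. Its Cd69-/- levels were 4.63 and 5.88 FPKM in stem-like and 0.385 and 0.847 in term diff. Every stem-like library was above every term diff library, but the values rest on 4 to 15 implied fragments per stem-like library and 0 to 2 per term diff library. In wild type 15 fragments stood against 1, a ratio of 17.6 relative to library totals (95% exact binomial interval 2.71 to 743), and in Cd69-/- 27 against 3, a ratio of 8.38 (2.58 to 43.1). These intervals cover counting error only. Ccl1 fell by 1.70 ± 0.31 in wild type (adjusted p = 0.00982, limma) and fell by 1.96 ± 0.31 in Cd69-/- (adjusted p = 0.00699, limma). Neither call held without the filter on low genes (adjusted p = 0.103 and 0.0893). Leaving out replicate 2 of wild-type term diff ended the first as well (adjusted p = 0.0652; 0.00547 to 0.103 over its alternatives), and leaving out replicate 1 of Cd69-/- term diff ended the second (adjusted p = 0.0546; 0.00302 to 0.0893). Because the level is low, the size of the change moved with the pseudocount, from -3.72 with 0.1 to -0.61 with 5 in wild type and from -2.97 to -0.87 in Cd69-/-.

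Cxcl10, the interferon-induced CXCR3 ligand, was at 0.258 and 0.744 FPKM in wild-type stem-like and 3.34 and 1.47 in wild-type term diff. In Cd69-/- cells it was at 0.908 and 0.527 FPKM in stem-like and 0.388 and 0.854 in term diff. Only the wild-type term diff pair reached 1 FPKM, and the Cd69-/- subsets overlapped. It rose by 1.14 ± 0.30 in wild type (adjusted p = 0.0409, limma), on 39 against 7 implied fragments. This call ended in 13 of 21 alternatives (adjusted p from 0.0219 to 0.213 over all 21), among them the fits without wild-type stem-like replicate 1 (0.191) or wild-type term diff replicate 1 (0.179). In Cd69-/- the difference was -0.09 ± 0.30 (adjusted p = 0.883, limma), with a 95% interval of -0.77 to 0.59. Ccl9, a CCR1 ligand better known from myeloid cells, was at 0 to 0.36 FPKM in the 8 libraries, on at most 8 implied fragments, and was not tested.

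In Cd69-/- cells 5 of the 7 ligands passed between subsets, 3 higher and 2 lower, against 9.45% of all genes tested (3.88% higher and 5.56% lower). The same 5 did not overlap between the Cd69-/- subsets, as did 56.8% of all genes tested (24.5% higher and 32.4% lower). Ccl1 is 1 of the 2 lower in each count, and having entered the test only through stem-like libraries it had to be lower. After rescaling each library to an equal sum of FPKM, in which small RNA weighs most, 2 ligands were called in each genotype, Ccl5 and Ccl1. In that scaling Ccl3 (adjusted p = 0.269 and 0.997 in wild type and Cd69-/-), Ccl4 (0.0837 and 0.997) and Xcl1 (0.177 and 0.218) kept their direction and did not pass. In bulk libraries, a larger part of cells with a transcript and more transcript per cell cannot be told apart.

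**Figure D4:**
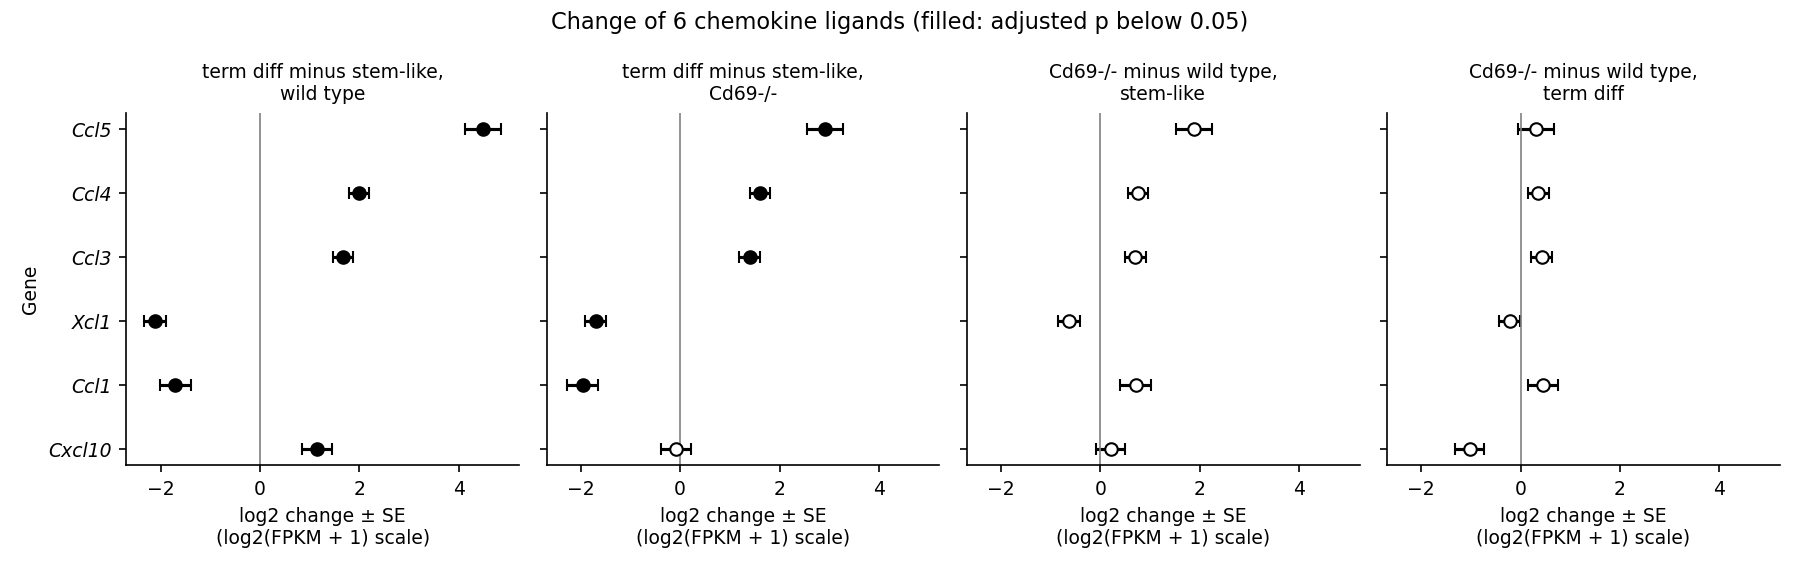
Log2 change (x axis, log2(FPKM + 1) scale) ± standard error of the 6 tested ligands in 4 comparisons, filled where the adjusted p was below 0.05. Between subsets (the 2 left panels) 6 points are filled in wild type and 5 in Cd69-/-, and between genotypes (the 2 right panels) none is.

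Between genotypes no ligand passed the threshold in either subset, and the values below are given with that limit. In stem-like cells 15 of 9782 genes passed (0.153%; 0.0409% higher and 0.112% lower in Cd69-/-), and in term diff cells 19 (0.194%; 0.112% higher and 0.0818% lower). At an unadjusted p under 0.05 the ligands numbered 5 in stem-like cells (7.26% of all genes tested) and 1 in term diff cells (15.1%), and voom on implied fragments called 0 in each. The 1 in term diff cells was Cxcl10, which entered the test only through wild-type term diff and so had to be lower in Cd69-/-. In stem-like cells libraries of the genotypes did not overlap for 6 of the 7 ligands, 4 higher and 2 lower in Cd69-/-, against 37.8% of all genes tested (26.3% higher and 11.5% lower). In term diff cells 5 of 7 did not overlap, 3 higher and 2 lower, against 47.8% (19.7% higher and 28.1% lower). Ccl9 is among the lower in both subsets but, at 0 to 0.36 FPKM, is not among the genes tested. In term diff cells the higher include Ccl1, on 0 to 2 implied fragments per library, and the lower include Cxcl10.

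Among the 6 ligands tested, the largest genotype difference on the log2(FPKM + 1) scale was that of Ccl5 in stem-like cells, whose Cd69-/- mean was 4.36 times the wild-type mean (1.88 ± 0.36, adjusted p = 0.193, limma, unadjusted 95% interval 1.04 to 2.71). With the replicate number as a block it passed (adjusted p = 0.0391; 0.0391 to 0.849 over its alternatives). Ccl4 in the same cells differed by 0.75 ± 0.20 (adjusted p = 0.408, limma) and Ccl3 by 0.70 ± 0.21 (adjusted p = 0.483, limma), with Cd69-/- means 1.76 and 1.71 times those of wild type. Xcl1 differed in the other direction, by -0.63 ± 0.21 (adjusted p = 0.564, limma), with a Cd69-/- mean of 71.2 ± 6.9 FPKM against 111 ± 6.5 (SD, n = 2). Ccl1 was at 0.71 ± 0.31 (adjusted p = 0.682, limma) and Cxcl10 at 0.20 ± 0.30 (adjusted p = 0.914, limma). The signs of Ccl5, Ccl4, Ccl3, Ccl1 and Xcl1 were the same in all alternatives run for stem-like cells, but their sizes moved. Leaving out 1 library gave 0.25 (without wild-type replicate 2) to 1.17 (without wild-type replicate 1) for Ccl1, and without Cd69-/- replicate 1 Ccl3 was at 0.38 and Ccl4 at 0.45. After rescaling to an equal sum Ccl3 was at 0.19, Ccl4 at 0.24 and Xcl1 at -1.17. For Ccl5, Ccl4, Ccl3 and Xcl1 both Cd69-/- stem-like libraries lay between the wild-type stem-like and the wild-type term diff libraries. Libraries did not overlap between genotypes in stem-like cells for 37.8% of all genes tested, and between wild-type subsets for 55.2%. The share of all genes tested that lay between in this way was not computed, so this order is not a result about the ligands. Tcf7 was at 55.2 to 64.2 FPKM in wild-type and 40.6 to 60.5 in Cd69-/- stem-like libraries, which overlap. Gzmb, a granzyme of cytotoxic granules, had stem-like levels of 23.6 and 28.4 FPKM in wild type and 49.3 and 49.5 in Cd69-/- (adjusted p = 0.158, limma). Havcr2, the inhibitory receptor TIM-3, was at 0.847 and 0.987 FPKM in wild-type and 2.03 and 2.29 in Cd69-/- stem-like libraries. These levels are near the filter of 1 FPKM, and no test result is given for Havcr2. The part of the Gzmb and Havcr2 differences in the ligands' values was not tested.

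In term diff cells the genotype difference of Ccl3 was 0.43 ± 0.21 (adjusted p = 0.375, limma) and that of Ccl4 0.36 ± 0.20 (adjusted p = 0.421, limma), and both turned negative after rescaling to an equal sum. Ccl5 was at 0.31 ± 0.36 (adjusted p = 0.711, limma, 95% interval -0.53 to 1.14), and turned negative after quantile normalization, after rescaling and without wild-type term diff replicate 2. Xcl1 was at -0.22 ± 0.21 (adjusted p = 0.640, limma, 95% interval -0.71 to 0.27), and turned positive without wild-type term diff replicate 2. Cxcl10 was at -1.03 ± 0.30 (adjusted p = 0.215, limma), on 9 implied fragments in Cd69-/- against 39 in wild type. Its direction was set by the filter, which it passed only through wild-type term diff. Ccl1 was at 0.45 ± 0.31 (adjusted p = 0.505, limma), on 3 fragments against 1.

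Averaged over both subsets, 0 of the ligands passed against 0.542% of all genes (0.266% higher and 0.276% lower), 5 had an unadjusted p under 0.05 (12.4% of all genes tested), and voom on implied fragments called Ccl4 alone. The average difference was 1.09 ± 0.26 for Ccl5 (adjusted p = 0.155, limma), 0.56 ± 0.14 for Ccl4 (adjusted p = 0.180, limma) and 0.56 ± 0.15 for Ccl3 (adjusted p = 0.193, limma). For Xcl1 it was -0.43 ± 0.15 (adjusted p = 0.328, limma). With the replicate block Ccl5 passed here too (adjusted p = 0.0370; 0.0370 to 0.534 over its alternatives). After rescaling to an equal sum, Ccl3 and Ccl4 turned negative.

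Whether the genotype difference itself changed with the subset was tested as an interaction, which 3 genes passed (0.0307%; 0.0204% positive and 0.0102% negative) and none of the ligands. The subset difference of Ccl5 was 1.57 ± 0.51 smaller in Cd69-/- than in wild type on the log2 scale (unadjusted 95% interval of the interaction -2.75 to -0.39, adjusted p = 0.542, limma). For Cxcl10 the interaction was -1.23 ± 0.42 (adjusted p = 0.542, limma), but it entered the test only through wild-type term diff, where a high level makes this value negative. Ccl5 and Cxcl10 had an unadjusted p under 0.05, as did 9.09% of all genes, and voom called no ligand. The interaction was -0.39 ± 0.28 for Ccl4, -0.27 ± 0.30 for Ccl3, 0.41 ± 0.30 for Xcl1 and -0.26 ± 0.44 for Ccl1.

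Of 5 receptors of the ligands, Ccr8 and Cxcr3 passed the filter on low values and Ccr1, Ccr3 and Xcr1 did not. Ccr8, the Ccl1 receptor, lay between 10.9 and 16.9 FPKM in every library and differed by -0.17 ± 0.14 in wild type (adjusted p = 0.482, limma). Cxcr3, the Cxcl10 receptor, was at 5.52 to 10.3 FPKM in stem-like and 2.66 to 4.70 in term diff libraries. Its difference did not pass in wild type (-0.80 ± 0.28, adjusted p = 0.106, limma) or in Cd69-/- (-1.02 ± 0.28, adjusted p = 0.0596, limma). Ccr1 (at most 0.631 FPKM) and Ccr3 (at most 0.208) were below the filter, as was Xcr1 (at most 1.33).

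**Figure D5:**
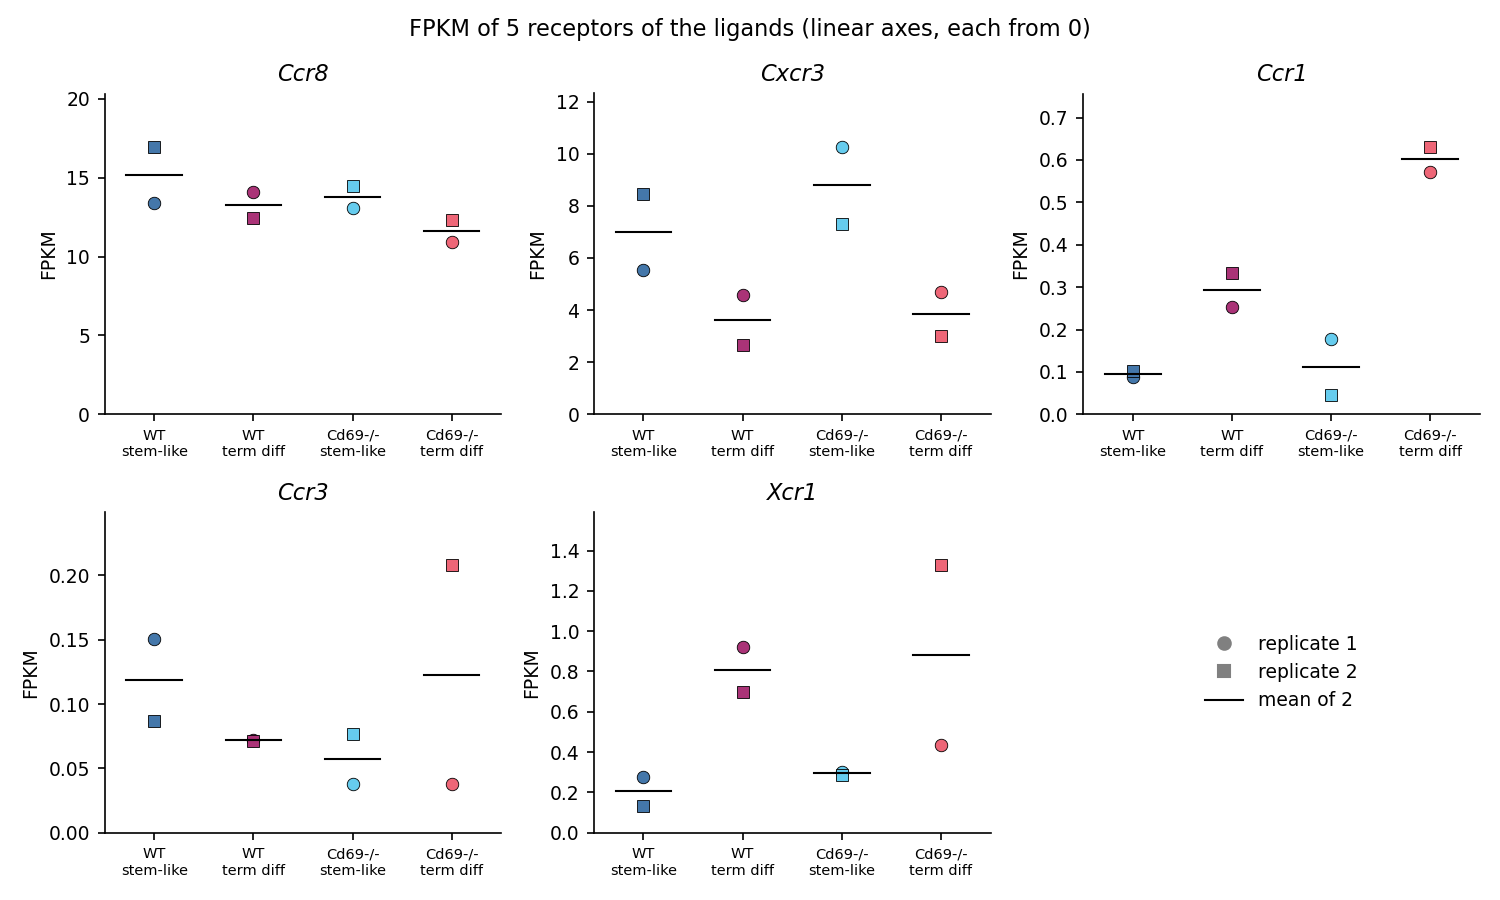
FPKM (y axis, linear, from 0 in each panel) of 5 receptors of the ligands by group (x axis), circles for replicate 1, squares for replicate 2 and a line at the mean. Ccr8 stays between 10.9 and 16.9, Cxcr3 between 2.66 and 10.3, and Ccr1, Ccr3 and Xcr1 do not exceed 1.33.

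Of 23 chemokine receptor genes looked up, 11 passed the filter. In each genotype 5 of these were higher and 4 lower in term diff, where 13.1% of all genes tested were called in wild type and 9.45% in Cd69-/- (median -0.17 in wild type and -0.23 in Cd69-/-, against 0.06 and -0.03 over all genes tested). Among those that rose were Cxcr6, a receptor of resident T cells (2.11 ± 0.18 in wild type, adjusted p = 0.000339, limma), and Ccr2, a receptor for monocyte attractants (1.11 ± 0.22, adjusted p = 0.0138, limma). The largest falls were those of the lymph node homing receptor Ccr7 (-3.74 ± 0.20), Ccr6 (-2.89 ± 0.13) and Cxcr4 (-1.55 ± 0.34). Cxcr5 was called lower as well (-0.74 ± 0.19 in wild type, -0.83 ± 0.19 in Cd69-/-). Ccr6 and Cxcr5 passed the filter only through stem-like libraries and had to be lower in term diff. Cxcr4 passed mainly through them, which favours a lower value: of the term diff libraries only Cd69-/- replicate 1 reached 1 FPKM (1.15). The count of lower receptors therefore rests largely on genes whose direction the filter fixed or favoured. Between genotypes Ccr6 alone passed, in stem-like cells, where its mean was 6.78 FPKM in wild type and 2.89 in Cd69-/- (adjusted p = 0.0417, limma).

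The other 30 chemokine ligand genes looked up were low. Of these, 26 stayed under 1 FPKM in all 8 libraries, the highest single value was 1.55 FPKM (Ccl2 in wild-type stem-like replicate 2), and all 30 summed to 2.63 to 9.90 FPKM per library. The 2 that passed the filter, Ccl17 and Ccl25, were called in no comparison. Ccl6, which lies between Ccl9 and Ccl3 on chromosome 11, did not exceed 0.76 FPKM. Cxcl9 and Cxcl11, the other interferon-induced CXCR3 ligands, did not exceed 0.35 and 0.24 FPKM.

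Of 14 secreted or granule genes 13 passed the filter, of which 4 were higher and 3 lower in wild-type term diff and 4 higher and 2 lower in Cd69-/- term diff (median 0.08 and 0.17, against 0.06 and -0.03 over all genes tested). Of all genes tested, 7.24% were higher and 5.83% lower in wild-type term diff, and 3.88% and 5.56% in Cd69-/- term diff. The granzyme Gzmb (3.38 ± 0.17), the pore-former Prf1 (1.91 ± 0.17) and the macrophage growth factor Csf1 (1.28 ± 0.13) rose in wild type, and Tnfsf11 (-2.27 ± 0.20), the growth factor Csf2 (-1.52 ± 0.31) and Lta (-1.30 ± 0.16) fell. Tnfsf11 and Lta passed the filter only through stem-like libraries and had to be lower in term diff. Ifng, the inducer of Cxcl10, was at 0.08 in wild type (adjusted p = 0.772, limma) and 0.48 in Cd69-/- (adjusted p = 0.105, limma). Of these genes Csf1 alone passed between genotypes, in stem-like cells (11.7 and 12.4 FPKM in wild type, 23.5 and 25.2 in Cd69-/-, adjusted p = 0.0417, limma) and over both subsets (adjusted p = 0.0189, limma).

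Of 21 early T cell receptor response genes, which like several chemokine genes are induced on activation, 4 were higher and 6 lower in wild-type term diff (median -0.22) and 1 higher and 7 lower in Cd69-/- term diff (median -0.28). The medians over all genes tested were 0.06 and -0.03, and the shares called were 7.24% higher and 5.83% lower in wild type and 3.88% and 5.56% in Cd69-/-. The largest differences in wild type were Cd83 (-3.03), Dusp5 (1.65), Egr3 (-1.64), Batf (-1.45), Egr1 (1.10) and Jun (-1.06). Cd83 passed the filter only through stem-like libraries and had to be lower in term diff. Egr3 passed mainly through them, which favours a lower value: of the term diff libraries only Cd69-/- replicate 2 reached 1 FPKM (1.47). Of 29 interferon response genes kept of 31, 2 were higher and 1 lower in wild type (Ddx58 at 0.69, Gbp4 at 0.49 and Oas3 at -0.73), with a median of 0.18, against 13.1% of all genes called and a median of 0.06. In Cd69-/- 1 was higher (Gbp4, 0.48) and 1 lower (Ifi44, -0.80), with a median of 0.06, against 9.45% of all genes called and a median of -0.03. Ifi44 was kept mainly through the Cd69-/- stem-like libraries, which favours a lower value: of the term diff libraries only Cd69-/- replicate 2 reached 1 FPKM (1.27). No gene of either list passed between genotypes.

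Markers of other cells that can make chemokines were measured beside these results, and their part in them was not tested. Myeloid markers summed lower in term diff, a sum resting mostly on Cd68, Cd74, Lyz2 and H2-Ab1. Means of Csf1r, Itgam, C1qa and C1qb were instead higher in wild-type term diff, all under 1 FPKM. The macrophage genes C1qa, C1qb, C1qc and Emr1 did not exceed 0.794 FPKM and were listed at 0 in at least 1 library. Of 9 dendritic cell markers 5 stayed under 1 FPKM in all libraries (summed level 1.36 to 4.28). The NK cell genes Ncr1 and Klrb1c did not exceed 0.375 FPKM, while Nkg7 was at 78.3 to 198 FPKM, Klre1 at 14.1 to 36.4 and Eomes at 1.32 to 6.84, genes that CD8 T cells can also express. In Cd69-/- term diff Klre1 (1.12 ± 0.15, adjusted p = 0.00325, limma) and Nkg7 (0.90 ± 0.17, adjusted p = 0.0141, limma) rose with Ccl3, Ccl4 and Ccl5, and Eomes fell (-1.28 ± 0.25, adjusted p = 0.0168, limma). In wild type, where those ligands also rose, Klre1 (0.40 ± 0.15, adjusted p = 0.121, limma), Nkg7 (0.41 ± 0.17, adjusted p = 0.155, limma) and Eomes (-0.76 ± 0.25, adjusted p = 0.0887, limma) did not pass. Klri2, the other NK marker tested, passed in neither genotype (0.36 ± 0.20 in wild type, adjusted p = 0.269, and -0.56 ± 0.20 in Cd69-/-, adjusted p = 0.121, limma). All 7 NK markers, most of that sum being Nkg7, added up to 107 to 125 FPKM in stem-like, 140 to 147 in wild-type term diff and 199 to 237 in Cd69-/- term diff. Markers of CD4 and regulatory T cells summed to 23.8 to 29.8 FPKM in stem-like and 9.79 to 13.5 in term diff. Il2ra, Ikzf2 and Cd40lg, which activated CD8 T cells can also express, fell in both genotypes, Cd40lg having passed the filter only through stem-like libraries. Cd4 itself was at 1.38 to 5.52 FPKM and passed between subsets in neither genotype (adjusted p = 0.418 and 0.719, limma). Foxp3, below the filter, did not exceed 1.14 FPKM. Of 10 tumour and stroma markers 8 stayed under 1 FPKM, and their summed level, nearly all Pecam1 and Igfbp7, was 27.7 to 35.3 in stem-like and 8.83 to 11.8 in term diff. B cell markers (6 of 6) and neutrophil markers (5 of 6 had a row) were under 1 FPKM in all libraries.

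The genes other than the ligands whose levels followed each ligand most closely over the 8 libraries were found by Pearson r of log2(FPKM + 1). The search covered 4389 named genes with a mean of at least 5 FPKM, and the ligands themselves were left out of it. The libraries fall into 2 subsets, so a high r here mostly restates the subset difference, and it carries no test. For Xcl1 they were Trim59 (r = 0.995), Magi3 (0.990) and Pms1 (0.984). Ccl5 was followed by F2r (0.977), Tmem189 (0.976) and Adam8 (0.976). Lass2 and Efhd2 were among the top 3 of both Ccl4 (0.986 and 0.981) and Ccl3 (0.969 and 0.971), joined by Cotl1 for Ccl4 (0.983) and Tpst2 for Ccl3 (0.968). For the ligands with few fragments, Ccl1 had Filip1l (0.961), Rxrb (0.958) and Oxsr1 (0.957), and Cxcl10 had Crkl (0.911), Nars (0.908) and Ncaph (0.899). Among the ligands themselves, r was 0.990 between Ccl3 and Ccl4, 0.979 between Ccl4 and Ccl5, and -0.987 between Ccl5 and Xcl1.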

How the data were processed

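The 8 libraries came from a stranded total RNA kit for very small inputs and were sequenced from 1 end on an Illumina NextSeq500, per the labels' protocols. The authors deposited 1 gene table per library with FPKM and the limits of its confidence interval, per the file headers. Build mm10, Cufflinks 2.2.1, TopHat 1.3.2, Bowtie2 2.3.4 and bcl2fastq 2.20 are named in the submitters' processing notes. The roles of these tools, the annotation, strand setting and FPKM total are not given in the sources used here. Tables were joined by symbol and locus (23746 rows, of which 3 with a status other than OK were left out). Implied fragments are the square of the ratio of 2 FPKM to the upper half-width of the interval. They are approximate: of rows under 15 fragments, 63.6% to 65.5% were whole numbers (tolerance 0.05). P-values rest on FPKM.

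The 9782 genes that reached 1 FPKM in 2 or more libraries entered limma 3.58.1 (R 4.3.3) as log2(FPKM + 1), in a model of 4 group means (residual degrees of freedom 4, prior 4.2, empirical Bayes with a trend). Tests were 2-sided. The code of the fit was run on simulated counts with known changes and the same dispersion for every gene. That run did not include the differences in small RNA between these libraries and does not bear on the results here. Intervals are at 95%.

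The members, lists and tests were chosen with earlier results of these data known. Named were the 7 ligands, the genes that check labels, the 3 genes most like each ligand (other ligands and unnamed gene models left out) and, of the receptor, other ligand, secreted, early T cell receptor response and interferon lists, up to 6 genes that passed between subsets. Other named genes (Ccr8, Cxcr3, Ccr1, Ccr3 and Xcr1 as receptors of the ligands, and Ccl2, Ccl6, Cxcl9, Cxcl11, Ifng and the cell markers) were chosen after their values were seen. Results for 1 listed gene are not reported here. Older symbols of 5 listed genes were matched through the RefSeq table.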

Additional observations from a re-analysis of the deposited data

How the results depend on the processing

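Each comparison was recomputed under 22 alternatives (21 for the average and the interaction): other pseudocounts (0.1 and 5), filters, scalings and variance settings, a replicate block, voom on implied fragments, each library left out in turn and, added after seeing the data, both libraries low in small RNA left out. With a filter of 5 FPKM, Ccl1 and Cxcl10 gave no value. The number of ligands called was 2 after rescaling to an equal sum of FPKM in wild type (main 6) and in Cd69-/- (main 5), and 2 without a filter in Cd69-/-. The rescaling moved the median of all genes by 0.14 in wild type, -0.27 in Cd69-/-, -0.45 between genotypes in stem-like, -0.86 in term diff, -0.65 over both and -0.42 in the interaction. Leaving out 1 library gave 5 calls each time in wild type, 4 to 5 in Cd69-/- and 0 between genotypes. With voom 1 ligand was called over both subsets.

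The replicate block called 1 ligand (Ccl5) between genotypes in stem-like cells and 1 over both subsets, against 0 in each without it, and no ligand's call changed under it otherwise except that of Cxcl10 in wild type (adjusted p = 0.0599, limma). Over all genes it called 1070 in wild type (1278 without), 746 in Cd69-/- (924), 8 in stem-like (15) and 6 in term diff (19). The labels do not say that equal numbers mark a pair, and the correlations of the deviations of equal numbers ran from -0.297 to 0.153 over the 6 pairs of groups, so no pairing was assumed; a shared mouse or day was not tested. Ccl5 was higher in replicate 1 than in replicate 2 in all 4 groups.

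Signs turned as follows, on the log2 scale. After equal-sum rescaling, Cxcl10 was at -0.041 between genotypes in stem-like cells, Ccl3 at -0.62, Ccl4 at -0.70 and Ccl5 at -0.76 in term diff, Ccl3 at -0.22 and Ccl4 at -0.23 over both subsets, and Xcl1 at -0.083 in the interaction. After quantile normalization Cxcl10 was at 0.027 between Cd69-/- subsets and Ccl5 at -0.16 between genotypes in term diff. Without both libraries low in small RNA, Ccl5 was at -0.079 and Xcl1 at 0.070 between genotypes in term diff. The Ccl1 interaction was 0.75 with a pseudocount of 0.1 and 0.56 with voom. With 1 library left out, Cxcl10 ranged from -0.30 to 0.12 between Cd69-/- subsets and from -0.031 to 0.44 between genotypes in stem-like, Ccl5 from -0.079 to 0.69 and Xcl1 from -0.51 to 0.070 between genotypes in term diff, and the interaction from -0.72 to 0.20 for Ccl1 and from -0.59 to 0.045 for Ccl3. None of these passed with either sign. The cause was not tested.

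Over the alternatives, the genes called ranged from 153 to 1865 in wild type, 71 to 1617 in Cd69-/-, 4 to 55 between genotypes in stem-like, 3 to 320 in term diff, 17 to 218 over both and 0 to 105 in the interaction. The split of calls between wild-type subsets was 708 higher and 570 lower, but 652 and 717 under quantile normalization, 641 and 751 under median-of-ratios scaling and 74 and 79 after equal-sum rescaling. Between genotypes in term diff it was 11 and 8, but 3 and 6 under quantile normalization and 6 and 7 under median-of-ratios scaling. In stem-like it was 4 and 11, 2 and 12 after quantile normalization and 32 and 23 after equal-sum rescaling. In the interaction it was 2 and 1, and 21 and 30 after equal-sum rescaling. Few fragments limit Ccl1, Cxcl10 and Ccl9, and 2 libraries per group limit all comparisons.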
